A study of Homo sapiens with 12 samples.

Results

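The 7 genes described here encode the FOS and JUN subunits of the transcription factor AP-1, namely FOS, FOSB, FOSL1, FOSL2, JUN, JUNB and JUND. They were taken by name from a table of 58735 genes, all 7 were found, and all 7 were among the 16133 genes with enough counts to be tested. Poly(A) RNA was sequenced from KP4 and MiaPaca2, established cell lines from human pancreatic ductal adenocarcinoma, after 48 h in the solvent DMSO or in 100 nM trametinib, which blocks MEK1 and MEK2, the kinases that activate ERK. Each line under each treatment was a group of 3 libraries, giving 4 groups and 12 libraries. KP4 and MiaPaca2 are each a single established line. The labels do not say whether a group's 3 libraries are separate cultures, and the spread that the p-values rest on may therefore be technical.

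AP-1 is a dimer. JUN proteins pair with each other or with FOS proteins through a leucine zipper, whereas FOS proteins need a JUN partner, and the dimer binds the DNA element TGACTCA or the related cAMP response element TGACGTCA. FOS, FOSB, JUN and JUNB are immediate early genes whose transcription rises within minutes of growth factor stimulation, in part through ERK and its ETS-family substrates at serum response elements. FOSL1 (FRA-1) is the subunit best known to accumulate under sustained ERK signalling, both as mRNA and as a protein that ERK phosphorylation stabilises. JUND is often described as the more constantly expressed JUN gene, and JUNB as one that can oppose JUN in growth control. The measurements here are of mRNA only and say nothing of protein level, phosphorylation or DNA binding.

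Total counts per library ran from 20293688 to 28018129. Replicates of MiaPaca2 DMSO differed more than those of the other groups: the chi-square per degree of freedom between its replicates was 7.70 to 14.5, against 2.02 to 2.89 elsewhere, and replicate 2 was the farther from the other two. The share of counts from the mitochondrial genome also moved with treatment, from between 4.16% and 4.38% to between 5.48% and 5.75% in KP4 and from between 2.25% and 3.32% to between 4.02% and 4.25% in MiaPaca2, and its part in the results was not tested. Of 6 ductal epithelial markers, KRT8 and KRT18 were detected in both lines (51.9 and 183 CPM in KP4 DMSO), while EPCAM and CDH1 lay below 0.5 CPM in both DMSO groups, and the mesenchymal gene VIM stood at 3629 CPM in KP4 DMSO and 6061 CPM in MiaPaca2 DMSO. CPM is the count of a gene relative to the size of its library, as scaled by the TMM method. The other mesenchymal markers listed did not all follow VIM. CDH2 was at 131 CPM in KP4 DMSO and 33.9 CPM in MiaPaca2 DMSO. ZEB1 was at 55.5 and 52.6 CPM, and FN1 at 15.3 and 15.5 CPM. In trametinib VIM was at 3085 CPM in KP4 and 4956 CPM in MiaPaca2, and ZEB1 at 44.2 and 46.1 CPM. CDH2 was higher with trametinib, at 173 CPM in KP4 and 73.1 CPM in MiaPaca2. FN1 was then at 14.7 and 33.2 CPM. The summed ductal markers went with trametinib in MiaPaca2 from between 1632 and 2012 to between 674 and 689 CPM, and were 236 to 248 against 198 to 207 CPM in KP4. The sums are mostly keratins, and other markers of the list went the other way: CDH1 was at 0.472 CPM in DMSO and 4.96 CPM in trametinib in KP4 and at 0.141 and 2.30 CPM in MiaPaca2. EPCAM was at 0.196 and 0.734 CPM in MiaPaca2, and KRT8 at 51.9 and 64.0 CPM in KP4. Summed fibroblast markers went from between 72.5 and 123 to between 217 and 229 CPM in MiaPaca2, nearly all of it COL1A2, with DCN and LUM near 0. The immune markers summed to at most 5.67 CPM and the acinar markers were at 0 in every library. The part of these marker levels in the results was not tested.

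Promoter sequence was available from RefSeq (GRCh38.p14) for 6 of the 7 members, as windows from 250 bases before to 50 bases after the transcription start. FOSL1 had no window and was not searched. The cAMP response element core TGACGT, searched on both strands, was present in 7.98% of all 35116 such windows. It was found in FOS, FOSB and FOSL2, each with 1 match on the gene's own strand, from −64 to −59 in FOS, −60 to −55 in FOSB and −66 to −61 in FOSL2 (positions counted from the start site). JUND held 3 matches, of which an overlapping pair forms the full palindrome TGACGTCA from −200 to −193, an element found in 1.85% of windows. JUN and JUNB held no match. The start sites are those of the RefSeq windows. By the annotation that gives the gene spans below, the FOSL2 match lies inside the gene (28392448 to 28417312), after its outermost start. The 30-base stretches with the matches are shown because the 3 FOS-family windows searched have the element in common, as does JUND. Each is given 5′ to 3′ on the strand of the gene with the TGACGT match, or its reverse complement, in capitals.
FOS, chr14:75278752-75278781, plus strand: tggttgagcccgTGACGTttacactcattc
FOSB, chr19:45467924-45467953, plus strand: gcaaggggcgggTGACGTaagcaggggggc
FOSL2, chr2:28392780-28392809, plus strand: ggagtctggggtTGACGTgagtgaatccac
JUND, chr19:18281805-18281834, minus strand: cggccgcccccaTGACGTCAacccacaagg
JUND, chr19:18281692-18281721, minus strand: tgcaaatgagcgACGTCAcccgcacccaat

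The AP-1 element TGACTCA (4.95% of windows, both strands) was matched in FOSL2 alone of the 6 windows, from 4 to 10 after the start. A CArG box, the core of a serum response element (1.29% of windows), was matched in none of the 6. The windows reach only 250 bases before the start. Elements farther away were not searched, so the lack of a match does not show that a gene has no serum response element. The element TATAAA (11.5% of windows) was matched in FOS, FOSB and JUNB. The FOS match, from −33 to −28, lies after the outermost annotated FOS start, so the FOS stretch below stops before it. A match is a stretch of letters, not a bound site. The longer stretches before the start are shown for FOS, which moved most in KP4, and for JUNB, which rose most in MiaPaca2, with TGACGT and TATAAA in capitals. The FOS stretch ends where the outermost annotated FOS transcript of GENCODE 29 begins.
FOS, chr14:75278578-75278773, plus strand: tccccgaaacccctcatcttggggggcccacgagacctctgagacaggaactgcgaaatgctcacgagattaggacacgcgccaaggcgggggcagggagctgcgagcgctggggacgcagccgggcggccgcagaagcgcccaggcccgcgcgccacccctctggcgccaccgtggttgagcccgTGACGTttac
JUNB, chr19:12791236-12791485, plus strand: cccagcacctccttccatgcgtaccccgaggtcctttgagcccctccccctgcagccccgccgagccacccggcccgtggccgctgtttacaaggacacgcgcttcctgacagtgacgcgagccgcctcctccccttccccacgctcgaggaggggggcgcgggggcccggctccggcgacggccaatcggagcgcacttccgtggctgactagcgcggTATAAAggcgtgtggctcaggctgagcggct

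The first comparisons asked how each line's AP-1 genes responded to trametinib, and whether the lines responded alike. FOSL1 fell to nearly the same level in both lines. FOS, FOSB and JUN fell in KP4. In MiaPaca2 FOS rose, while the changes in FOSB and JUN did not pass the test. JUN passed it as lower there in some of the other fits given below. FOSL2, JUNB and JUND rose in MiaPaca2 by 0.59 to 1.53 on the log2 scale, against −0.15 to 0.12 in KP4. In bulk libraries, fewer cells with a transcript and less of it per cell cannot be told apart. Of the 7 members, 5 were lower and 1 higher by edgeR's quasi-likelihood test in KP4 (adjusted p under 0.05), where 47.2% of all genes tested were called, 23.6% higher and 23.6% lower. In MiaPaca2 4 were higher and 1 lower, against a background of 63.6% called, 34.1% higher and 29.5% lower. These backgrounds are high, so a call alone sets a member apart from few other genes. Every called member had DMSO and trametinib libraries that did not overlap, which was also true of 60.1% of all genes tested in KP4 and 64.4% in MiaPaca2.

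**Figure D1:**
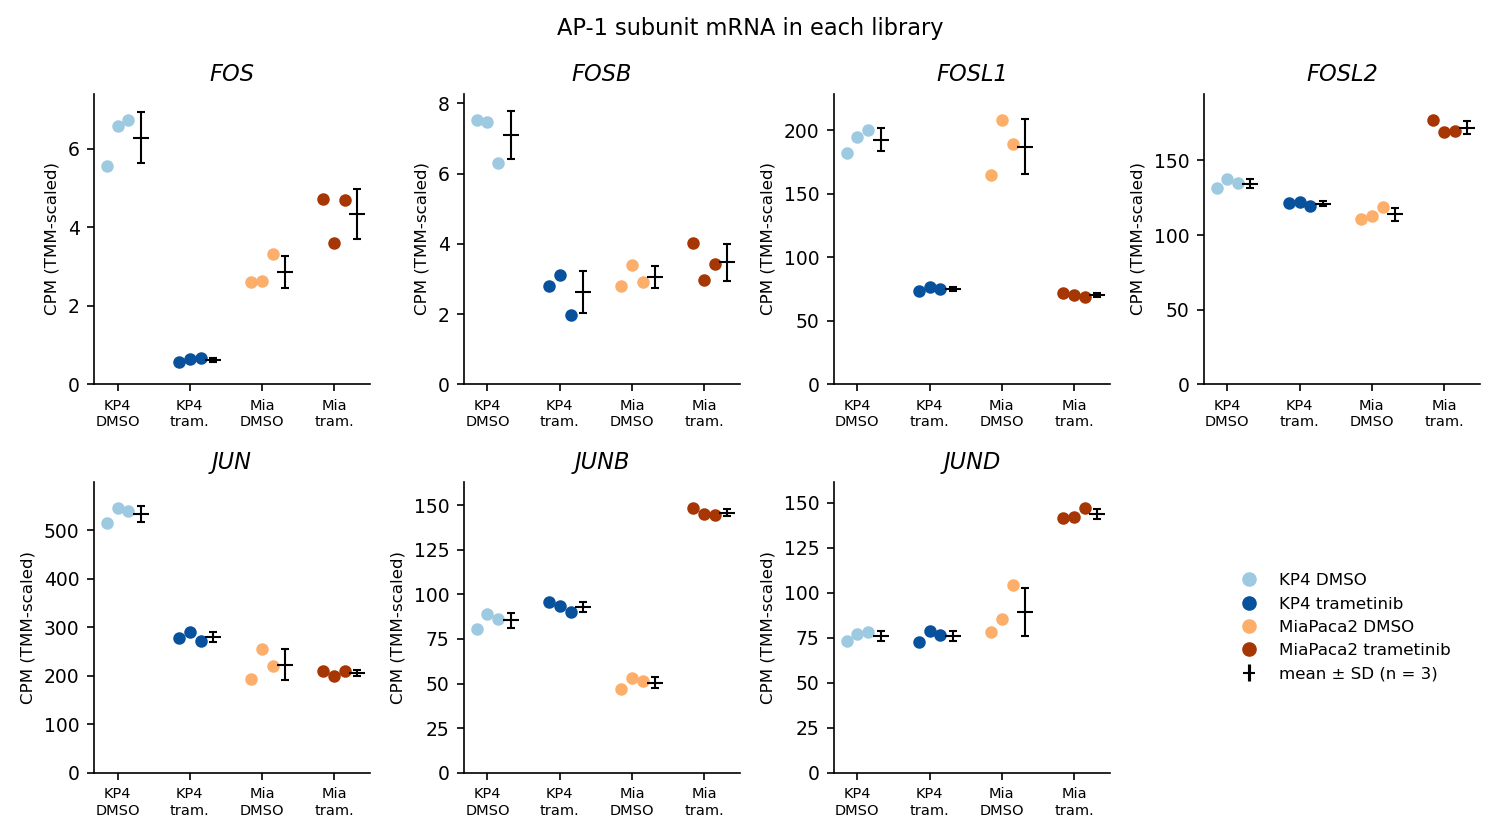
Level of each AP-1 subunit mRNA (vertical axis, TMM-scaled CPM, from 0) in every library of KP4 and MiaPaca2 (Mia) under DMSO or trametinib (tram.); points are libraries in replicate order and black bars the mean ± SD of 3. FOSL1 drops in both lines, FOS and JUN drop in KP4, and JUNB and JUND are highest in MiaPaca2 trametinib.

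FOS (ENSG00000170345, chromosome 14, 75278774 to 75282230, GRCh38), the founding member of the family, was scarce in every group. In KP4 it measured 5.54, 6.57 and 6.73 CPM in DMSO and 0.562, 0.635 and 0.668 CPM in trametinib, from 140, 169 and 188 counts and from 16, 17 and 18 counts. This was a 10.1-fold fall (log2 fold change −3.33 ± 0.21 SE, edgeR adjusted p = 1.47e-12), and only 0.911% of all genes tested moved further in KP4. Its MiaPaca2 libraries measured 2.60, 2.64 and 3.32 CPM in DMSO and 4.71, 3.60 and 4.69 CPM in trametinib. All 3 trametinib libraries of MiaPaca2 lay above all 3 DMSO libraries, a 1.53-fold rise (0.61 ± 0.18, edgeR adjusted p = 0.00472). The 4 groups did not overlap, with KP4 DMSO highest, then MiaPaca2 trametinib, MiaPaca2 DMSO and KP4 trametinib. The 2 responses differed by −3.94 ± 0.28 on the log2 scale (KP4 minus MiaPaca2, edgeR adjusted p = 4.08e-11).

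FOSB (ENSG00000125740, chromosome 19, 45467995 to 45475179), whose product resembles FOS and also exists as a truncated splice form that gene counts cannot separate, was nearly as scarce. Its libraries measured 7.53, 7.46 and 6.30 CPM in KP4 DMSO and 2.81, 3.10 and 1.97 CPM in KP4 trametinib. FOSB fell 2.69-fold in KP4 (−1.43 ± 0.18, edgeR adjusted p = 1.96e-07). The MiaPaca2 values were 2.80, 3.41 and 2.92 CPM in DMSO and 4.02, 2.96 and 3.43 CPM in trametinib. Those libraries overlapped, and the difference of 0.19 did not pass the test (95% interval −0.20 to 0.59, edgeR adjusted p = 0.384). KP4 DMSO stood above the other 3 groups, each of which overlapped its neighbour in level, and the responses differed by −1.63 ± 0.26 (edgeR adjusted p = 1.88e-05). FOSB lies within the locus of ERCC1 on the opposite strand, with no shared exon bases, and held 1231 counts over all libraries against 34794 for ERCC1. Whether counting used strand is not given in the sources used here.

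FOSL1 (ENSG00000175592, chromosome 11, 65892049 to 65900573) was the most abundant FOS-family mRNA per kilobase of exon in every group, under DMSO and under trametinib. It measured 182, 195 and 199.9 CPM in KP4 DMSO and 73.7, 76.6 and 75.0 CPM in KP4 trametinib, a 2.56-fold fall (−1.36 ± 0.06, edgeR adjusted p = 5.96e-14). The values in MiaPaca2 were 164, 208 and 189 CPM in DMSO and 71.8, 70.5 and 68.7 CPM in trametinib, a 2.66-fold fall (−1.41 ± 0.06, edgeR adjusted p = 1.42e-14). In DMSO the lines overlapped, and in trametinib they lay within 68.7 to 76.6 CPM, with all KP4 libraries above all MiaPaca2 libraries. FOSL1 was the only one of the 7 whose responses did not differ by the test between the lines: the difference was 0.05, with a 95% interval of −0.13 to 0.24 (edgeR adjusted p = 0.671). Without MiaPaca2 DMSO replicate 2, its highest library in that group, the difference was −0.03.

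FOSL2 (ENSG00000075426, chromosome 2, 28392448 to 28417312), which encodes FRA-2, moved in opposite directions. It measured 131, 137 and 135 CPM in KP4 DMSO and 121, 122 and 119 CPM in KP4 trametinib. The groups did not overlap, but the fall was small (−0.15 ± 0.04, edgeR adjusted p = 0.00415), and 69.1% of all genes tested moved further in that line. MiaPaca2 gave 110.4, 113 and 119 CPM in DMSO and 177, 169 and 169.7 CPM in trametinib, a 1.51-fold rise (0.59 ± 0.04, edgeR adjusted p = 4.21e-12). MiaPaca2 therefore held both the lowest group, DMSO, and the highest, trametinib, with both KP4 groups between them and no overlap between neighbours. The responses differed by −0.75 ± 0.06 (edgeR adjusted p = 2.84e-10).

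JUN (ENSG00000177606, chromosome 1, 58780788 to 58784327), the best known FOS partner, is a gene without introns. It measured 515, 545 and 541 CPM in KP4 DMSO and 278, 291 and 271 CPM in KP4 trametinib, a 1.91-fold fall (−0.93 ± 0.07, edgeR adjusted p = 2.24e-07). MiaPaca2 libraries stood at 193, 256 and 221 CPM in DMSO and 211, 199 and 209.8 CPM in trametinib. The MiaPaca2 trametinib libraries lay inside the range of the DMSO libraries, and the difference of −0.11 did not pass the test (95% interval −0.28 to 0.05, edgeR adjusted p = 0.224). That difference was −0.21 without MiaPaca2 DMSO replicate 1 (edgeR adjusted p = 0.00142) and −0.13 with no filter on low counts (0.0176), both past the threshold, and was −0.0045 without replicate 2. Both KP4 groups lay above both MiaPaca2 groups, and the responses differed by −0.82 ± 0.11 (edgeR adjusted p = 4.55e-05).

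JUNB (ENSG00000171223, chromosome 19, 12791496 to 12793315) gave the largest rise of the 7. In MiaPaca2 it measured 47.0, 53.1 and 51.2 CPM in DMSO and 148, 145 and 144 CPM in trametinib, a 2.89-fold rise (1.53 ± 0.05, edgeR adjusted p = 1.29e-18). Only 9.50% of all genes tested moved further in that line. In KP4 it measured 80.5, 89.2 and 86.3 CPM in DMSO and 95.8, 93.2 and 89.9 CPM in trametinib. These did not overlap, by a margin of less than 1 CPM, and the rise of 0.12 ± 0.05 was just past the threshold (edgeR adjusted p = 0.0472). It was not past it with the replicate number as a block (0.0712), without robust shrinkage (0.0511), with no filter on low counts (0.0965), or without any 1 of 7 libraries, at 0.0600 to 0.259 (KP4 DMSO replicate 1 or 3, KP4 trametinib replicate 1 or 2, or any MiaPaca2 trametinib replicate). The responses differed by −1.41 ± 0.07 (edgeR adjusted p = 7.54e-14). Exons of HOOK2 on the opposite strand share 259 bases with JUNB. HOOK2 held 4501 counts over all libraries and JUNB 28046, so a part of these reads cannot be assigned to either gene where strand was not used.

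JUND (ENSG00000130522, chromosome 19, 18279760 to 18281622) kept a level in KP4 that trametinib did not shift by the test. It measured 73.1, 76.8 and 78.4 CPM in KP4 DMSO and 72.9, 78.9 and 76.3 CPM in KP4 trametinib, a difference of −0.0030 with a 95% interval of −0.16 to 0.15 (edgeR adjusted p = 0.989). In MiaPaca2 it measured 78.0, 85.5 and 104 CPM in DMSO and 142, 142 and 147 CPM in trametinib. That was a 1.61-fold rise (0.69 ± 0.07, edgeR adjusted p = 1.14e-07), and MiaPaca2 trametinib stood above the other 3 groups, which overlapped one after another. The responses differed by −0.69 ± 0.10 (edgeR adjusted p = 3.52e-05).

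**Figure D2:**
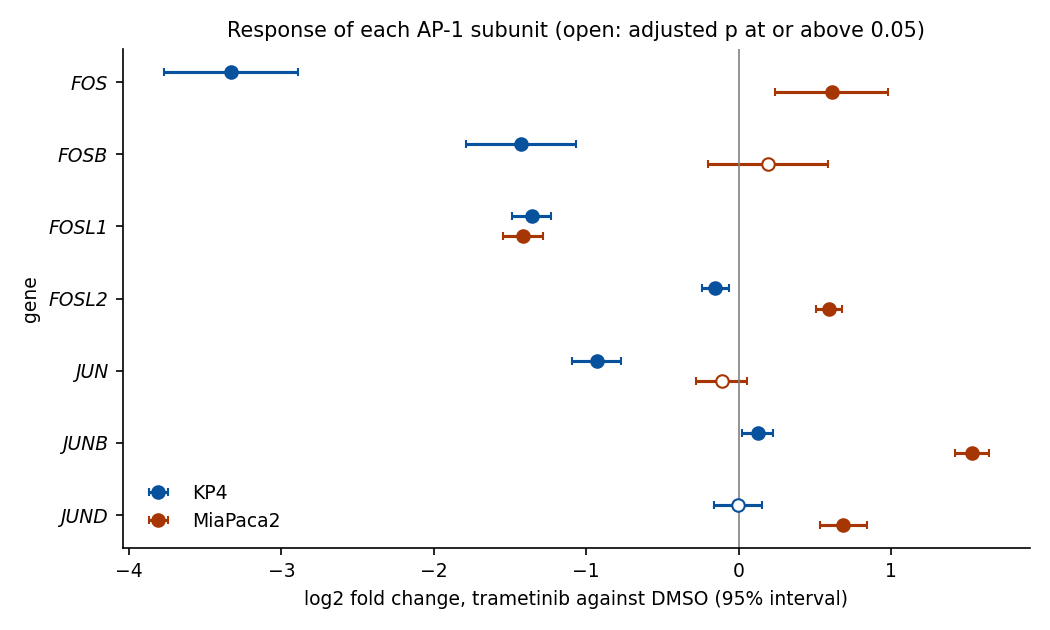
Log2 fold change of trametinib against DMSO (horizontal axis) for each AP-1 subunit in KP4 and MiaPaca2, with 95% intervals from edgeR; open points had an adjusted p at or above 0.05. FOSL1 is the member whose points lie together, at −1.36 and −1.41, and FOS is the member whose points lie farthest apart, at −3.33 and 0.61.

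In the test of the difference between the responses, 6 of the 7 members were called, all 6 with a lower value in KP4, where 36.1% of all genes tested were called and 19.9% were lower in KP4. The median difference of the 7 was −0.82 on the log2 scale, against −0.05 over all genes tested. All 3 JUN-family genes and 3 of the 4 FOS-family genes were among those called. Without MiaPaca2 DMSO replicate 2, the library that stood apart, 6 were again called, where the share of all genes tested was 41.3%.

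In DMSO, KP4 held more AP-1 mRNA than MiaPaca2 for most members. Between the DMSO groups 5 members were higher in KP4 and 1 lower, where 63% of all genes tested were called and 31.9% were higher in KP4. JUN was 2.39-fold higher in KP4 (1.26 ± 0.08, edgeR adjusted p = 5.30e-09), FOSB 2.33-fold, FOS 2.20-fold, JUNB 1.69-fold (0.76 ± 0.05) and FOSL2 1.18-fold. JUND was lower in KP4 by the test (−0.23 ± 0.07, edgeR adjusted p = 0.0118), although the libraries overlapped. That call was lost without KP4 DMSO replicate 1 (0.0528) and without MiaPaca2 DMSO replicate 3 (0.0989, at −0.10). FOSL1 was at 0.04 (95% interval −0.08 to 0.16, edgeR adjusted p = 0.580), which became 0.12 (0.0229) without MiaPaca2 DMSO replicate 2 and −0.05 without replicate 1.

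Under trametinib the order of the lines was turned for several members. Of the 7, 4 were lower in KP4 and 1 higher, where 55.2% of all genes tested were called and 29.2% were lower in KP4. FOS was 6.97-fold lower in KP4 trametinib than in MiaPaca2 trametinib (−2.80 ± 0.22, edgeR adjusted p = 6.17e-11), JUND 1.89-fold (−0.92 ± 0.07), JUNB 1.57-fold (−0.65 ± 0.05) and FOSL2 1.42-fold. JUN was still 1.35-fold higher in KP4 (0.44 ± 0.08, edgeR adjusted p = 2.60e-04). FOSL1 was at 0.09 (95% interval −0.04 to 0.23, edgeR adjusted p = 0.224), or at 0.09 with an adjusted p of 0.0468 when only these 6 libraries were fitted. FOSB was at −0.41 (edgeR adjusted p = 0.0722), and at −0.54 (0.0399) and −0.50 (0.0467) without replicate 2 of KP4 trametinib or of MiaPaca2 trametinib. These comparisons share their libraries with the responses above and are not separate evidence of them.

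Levels of different genes were compared as CPM per kilobase of exon, using the union of the exons of each gene in GENCODE 29. On this scale 4 members made up most AP-1 subunit mRNA: JUN, FOSL1, JUNB and JUND, with FOSL2 between 5.19% and 8.61% of the total in each group and FOS and FOSB each at most 0.534%. With the median transcript length in place of the union, FOSL2 took 8.48% to 13.6% and FOS 0.259% to 1.63%. In KP4 DMSO the summed level was 362 ± 13.4 CPM per kb (mean ± SD, n = 3), of which JUN took 41.6% ± 0.326 and FOSL1 28.1% ± 0.427. In KP4 trametinib the sum was 228 ± 5.21 CPM per kb, with JUN at 34.6% ± 0.442, JUNB at 22.4% ± 0.712, JUND at 17.9% ± 0.557 and FOSL1 at 17.4% ± 0.285. The DMSO and trametinib libraries of KP4 did not overlap in the sum or in any of the 7 shares.

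In MiaPaca2 the shares differed more than the sum. The sum was 255 ± 25.7 CPM per kb in DMSO and 279 ± 3.52 in trametinib, without overlap (exact permutation p = 0.1), but with the longest transcript of each gene as its length the libraries of the 2 groups overlapped (p = 0.5). FOSL1 held the largest share in MiaPaca2 DMSO, 38.8% ± 1.19, and 13.4% ± 0.297 in trametinib, below JUNB (28.7% ± 0.324), JUND (27.6% ± 0.626) and JUN (20.9% ± 0.391). In MiaPaca2 DMSO JUNB held 10.9% ± 0.463. The order of the shares depends on the lengths used: with the median transcript length, FOSL1 (33.9%) stood above JUN (31.9%) in KP4 DMSO, and JUND (32.3%) above JUNB (21.3%) in MiaPaca2 trametinib, where FOSL1 and JUN were at 15.6% and 15.5%. The change in the FOSL1 share, trametinib minus DMSO, was −10.7 percentage points in KP4 and −25.4 in MiaPaca2. In each line all 3 trametinib libraries were below all 3 DMSO libraries (exact 2-sided permutation p = 0.1, the smallest that 3 against 3 libraries can give). The 4 FOS-family genes together went from 34.2% to 25.1% of the total in KP4 and from 45.7% to 22.7% in MiaPaca2.

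**Figure D3:**
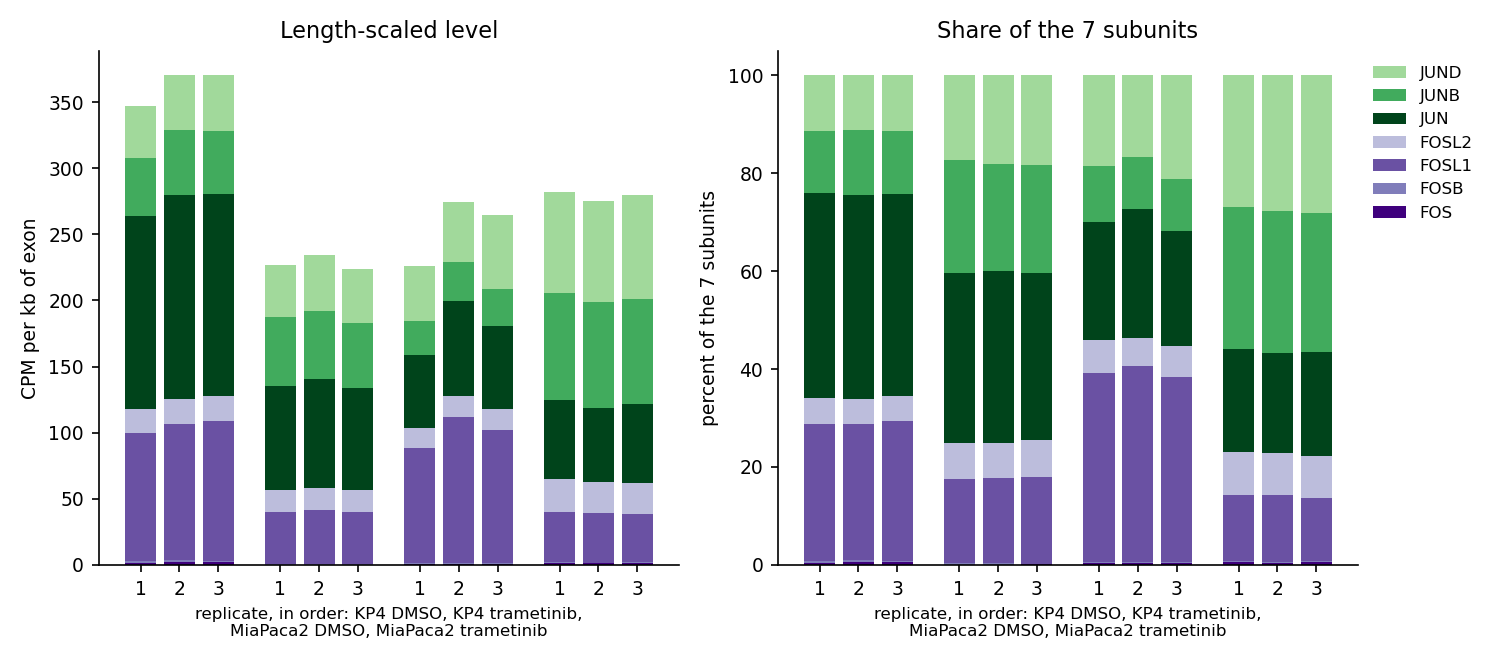
Length-scaled level (left, CPM per kb of exon) and share (right, percent of the 7 subunits) of each AP-1 subunit mRNA, as stacked bars for the 12 libraries in 4 groups of 3. The FOSL1 segment shrinks with trametinib in both lines, from 28.1% to 17.4% in KP4 and from 38.8% to 13.4% in MiaPaca2, while the JUNB segment of MiaPaca2 grows from 10.9% to 28.7%.

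The members differed in how tightly replicates agreed. Over FOSL1, FOSL2, JUN, JUNB and JUND, the coefficient of variation within the other 3 groups was 1.18% to 5.20%. In MiaPaca2 DMSO it was 11.7% for FOSL1, 14.1% for JUN and 15.2% for JUND, but 6.19% for JUNB and 3.83% for FOSL2. Replicate 2 was the highest of that group for FOSL1 and JUN, and replicate 3 for JUND. For the scarcer FOS and FOSB it was 8.69% to 22.5% over all 4 groups, at 51 to 558 counts per group, where counting error weighs more.

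Across the 12 libraries, the genes most like a member were sought among 10895 others with a mean of at least 5 CPM, by Pearson's r of log2(CPM + 1). This is a description over libraries that fall into 4 groups and share their lines and treatments, and FOS and FOSB were below the level asked. FOSL1 was most like EPHA2 (r = 0.996), a receptor tyrosine kinase gene that went from 325 to 85.0 CPM in KP4 and from 317 to 89.5 CPM in MiaPaca2, then TACC2 (0.994) and the collagen gene COL13A1 (0.993). JUN was most like MERTK (0.990), a receptor tyrosine kinase, KSR1 (0.990), a scaffold of the RAF-MEK-ERK cascade, and FSCN1 (0.990), which encodes the actin-bundling protein fascin. FOSL2 was most like MXD1 (0.978), which encodes a MAX partner that opposes MYC, SLC39A8 (0.975) and NFIL3 (0.974). JUNB was nearest to LRP10 (0.993), SPATA20 and ARHGEF40, and JUND to GNAS (0.982), MARCKSL1 and TOX4. Among the members themselves, FOSL2 and JUNB had an r of 0.884, JUN and FOSB 0.830, and FOSL1 and JUNB −0.753.

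Other basic leucine zipper genes, whose products can pair with AP-1 subunits or bind related elements, were described from a list of 26, of which 25 were tested. This list and those below were chosen with earlier results of these data known. Their shares beside the background are therefore a description and not a test. In KP4 8 were higher and 8 lower (64.0% called against 47.2% of all genes tested, median −0.01 against 0.00), and in MiaPaca2 16 were higher and 4 lower (80.0% called against 63.6% of all genes tested, median 0.49 against 0.05), where 34.1% of all genes tested were higher. In the difference between the responses, 17 of 25 were called, each lower in KP4 (68.0%, median −0.47). Of all genes tested, 36.1% were called and 19.9% were lower in KP4, with a median of −0.05. By edgeR's test CREB5 fell in both lines, from 34.1 ± 1.33 to 4.10 ± 0.727 CPM in KP4 (−3.06 ± 0.14, adjusted p = 1.15e-13), with a log2 fold change of −1.84 in MiaPaca2. MAFF, a small MAF protein gene, fell in both, with −2.25 in KP4 and −0.60 in MiaPaca2. CEBPD rose in both, by 1.54 and 2.09. BATF2, an interferon-inducible relative of the FOS genes, rose in MiaPaca2 from 1.80 ± 0.353 to 60.7 ± 4.45 CPM (5.07 ± 0.13, adjusted p = 3.72e-21), and by 2.78 in KP4. ATF3, a stress-induced JUN partner, rose in MiaPaca2 from 6.66 ± 3.87 to 34.5 ± 0.497 CPM (2.37 ± 0.27), and by 0.80 in KP4.

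Among 21 genes that act upstream of AP-1 transcription, 5 were higher and 4 lower in KP4 (42.9% called, median −0.04, against 47.2% of all genes tested) and 8 higher and 7 lower in MiaPaca2 (71.4%, median −0.02, against 63.6%). Both shares are near the background. ELK3, an ETS factor that acts with SRF at serum response elements, fell from 222 ± 3.70 to 80.2 ± 3.10 CPM in KP4 (−1.47 ± 0.05, edgeR adjusted p = 2.55e-18) and from 145 ± 8.51 to 61.0 ± 3.47 CPM in MiaPaca2 (−1.25 ± 0.05). STAT3 rose in both lines, from 459 ± 11.1 to 1051 ± 16.6 CPM in KP4 (1.20 ± 0.03, edgeR adjusted p = 1.28e-19) and from 324 ± 10.7 to 1009 ± 23.2 CPM in MiaPaca2. SRF itself was at 0.03 in KP4 (edgeR adjusted p = 0.622) and fell by 0.26 in MiaPaca2. MRTFA, an actin-controlled partner of SRF, rose by 0.91 in MiaPaca2 and was at 0.13 in KP4 (edgeR adjusted p = 0.102). RPS6KA1, which encodes the ERK-activated kinase RSK1, rose by 0.52 in KP4 and was at 0.06 in MiaPaca2 (edgeR adjusted p = 0.316).

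Of 9 genes for the turnover of AP-1 mRNA or protein, 1 was called in KP4, and it was lower (11.1%, median −0.03, against 47.2% of all genes tested), and 4 were higher and 2 lower in MiaPaca2 (66.7%, median 0.08, against 63.6%). The mRNA decay genes ZFP36, ZFP36L2 and ZFP36L1 rose in MiaPaca2 by 1.18, 0.78 and 0.51 on the log2 scale. In KP4 ZFP36L1 was the 1 that changed, from 252 ± 2.00 to 233 ± 2.37 CPM (−0.11 ± 0.04, edgeR adjusted p = 0.0356), and ZFP36 was at −0.12 (0.270).

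Genes that AP-1 is known to bind or induce in other cells were described from a list of 30, of which 22 were tested. The list was chosen with earlier results of these data known, so an excess over the background is a description and not a test. In KP4 16 were lower and 4 higher (90.9% called against 47.2% of all genes tested, median −0.85 against 0.00), and in MiaPaca2 13 were lower and 6 higher (86.4% against 63.6%, median −0.38 against 0.05). Of the 22, 13 were lower in both lines, 4 were higher in both and 1, MMP10, was lower in KP4 and higher in MiaPaca2. The share of all genes tested that were called in both lines was not computed, so these joint counts have no background beside them. In the difference between the responses 15 of the 22 were lower in KP4 and 1 higher (72.7% called), where 36.1% of all genes tested were called and 19.9% were lower. TIMP1, an inhibitor of matrix metalloproteinases, fell from 372 ± 14.2 to 33.4 ± 1.53 CPM in KP4 (−3.48 ± 0.05, edgeR adjusted p = 9.61e-26) and from 344 ± 20.7 to 53.7 ± 1.89 CPM in MiaPaca2 (−2.68 ± 0.05). CXCL8, which encodes interleukin-8, fell from 18.1 ± 2.40 to 1.41 ± 0.381 CPM in KP4, and its log2 fold change was −0.63 in MiaPaca2. The collagenase gene MMP1, with an AP-1 element in its promoter that is a textbook example, fell in KP4 from 909 counts in the 3 DMSO libraries to 3 counts in the 3 trametinib libraries. The ratio, scaled for depth, was 316, with an interval of 108 to 1533 at 95% that covers counting error only. MMP1 also fell in MiaPaca2, from 14.1 ± 4.96 to 2.96 ± 0.871 CPM. HMGA1 fell in both lines, with −1.84 in KP4, and went from 2119 ± 209 to 632 ± 6.17 CPM in MiaPaca2. The plasminogen activator gene PLAU rose in both, by 0.76 and 1.35.

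**Figure D4:**
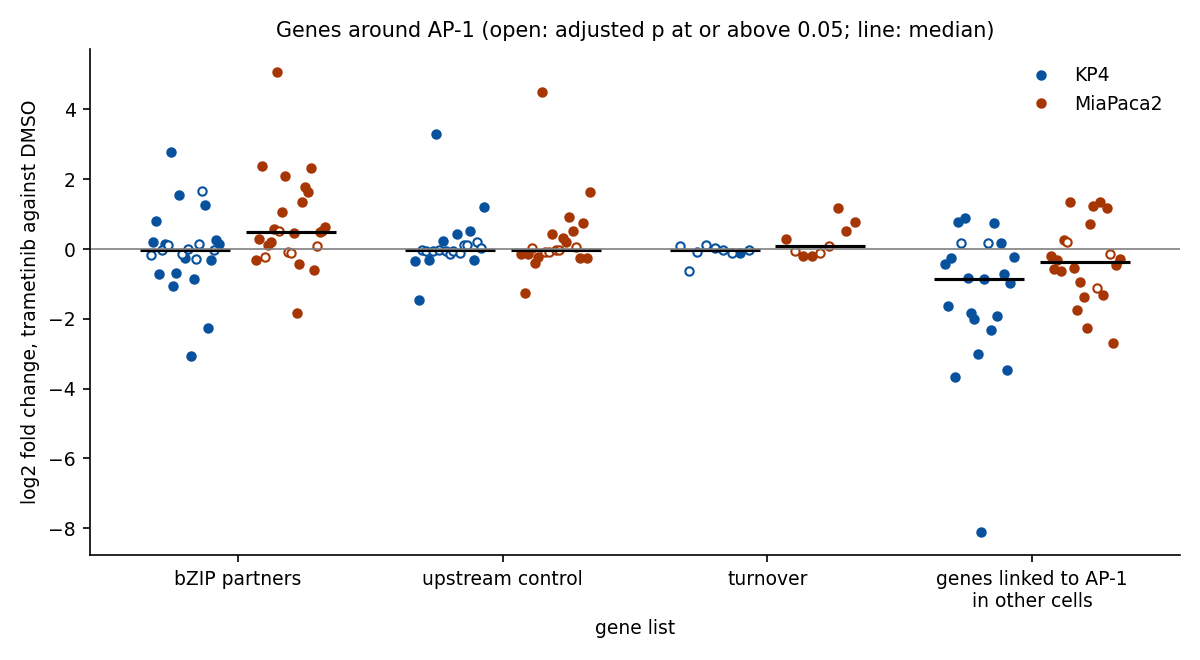
Log2 fold change of trametinib against DMSO (vertical axis) for each tested gene of 4 lists around AP-1, in KP4 and MiaPaca2; open points had an edgeR adjusted p at or above 0.05 and black lines are medians. Most of the 22 genes linked to AP-1 in other cells lie below 0 in both lines, with medians of −0.85 and −0.38. The 25 other leucine zipper genes have a median of −0.01 in KP4 and 0.49 in MiaPaca2. The lists were chosen with earlier results of these data known.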

How the data were processed

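The authors deposited raw counts, whole numbers for each gene and library, in a single table. STAR, DESeq2 and GRCh38 (hg38) are named per the submitters' processing notes, with no versions. The counting program, annotation, use of strand and handling of multimapping reads: not given in the sources used here. All 58735 identifiers were found in GENCODE 29 (GRCh38), which gave positions and exon lengths.

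From the counts, genes were filtered with filterByExpr (16133 left), scaled by TMM, and tested with edgeR 4.0.16 (R 4.3.3; quasi-likelihood test, robust shrinkage, 1 mean per group over all 12 libraries). P-values were adjusted by Benjamini-Hochberg over all genes tested, with a threshold of 0.05. SE is the log2 fold change divided by the square root of the test's F, and intervals are 95%. Length-scaled shares were compared by an exact permutation test. The fitting script was tested on counts simulated for KP4 alone, for its response to trametinib. The MiaPaca2 groups and the difference between the responses were not simulated.

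The members and lists were chosen with earlier results of these data known. The 7 members are always named. From each list, for each response, up to 3 genes are named with the largest change among those past the test, not overlapping and at a mean of at least 5 CPM in the higher group. SRF, PLAU and MMP10 fall outside that rule and were chosen after their values were seen. The most similar genes are the top 3 by r per member. The alternatives were RLE scaling, library size only, no filter, a strict filter, DESeq2 1.42.0, limma-voom (limma 3.58.1), no robust shrinkage, only the libraries compared, a replicate block, leaving out each library, and other gene lengths.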

Additional observations from a re-analysis of the deposited data

Results flagged for a closer look

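For 6 of the 7 AP-1 subunits the response to trametinib differed between the lines by edgeR's interaction test. Of all genes tested, 36.1% were called in that test and 19.9% were lower in KP4. Each difference is given as the KP4 response minus the MiaPaca2 response on the log2 scale. The difference was −3.94 for FOS, −1.63 for FOSB, −0.75 for FOSL2, −0.82 for JUN, −1.41 for JUNB and −0.69 for JUND. FOS and FOSL2 passed the test in opposite directions in the lines. JUNB was higher in both, with the KP4 call close to the threshold.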

How the results depend on the processing

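Each of the 35 member-by-comparison values was recomputed under 9 other settings and with each of the 12 libraries left out, and 27 kept their direction and their side of the threshold in all of these. JUND in KP4, at −0.0030, changed sign under DESeq2 (0.0136), RLE scaling (0.0134), the strict filter (0.0151), scaling by library size alone (0.0108) and a fit of only the libraries compared (0.0037). It lay between −0.0323 and 0.0505 with a library left out, and none of these passed the threshold. FOSL1 changed sign between the DMSO groups without MiaPaca2 DMSO replicate 1, with a range of −0.0451 to 0.124 over libraries left out, and in the difference between the responses without replicate 2, with a range of −0.0272 to 0.142. The calls that changed for JUNB, JUN, JUND, FOSB and FOSL1 are given with those genes above. The number of the 7 members called was 5 to 7 over all comparisons and settings, against 5 or 6 in the main fit. The share of all genes called also moved. For the KP4 response it was 23.7% with no filter and 59.9% with only the libraries compared.

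The change in the FOSL1 share, −10.7 points in KP4 and −25.4 in MiaPaca2, was −11.3 and −26.8 with the longest transcript as length, and −12.7 and −27.6 with the median transcript length, where only the lengths differ. Deviations of same-numbered libraries from their group means had correlations from −0.0150 to 0.0465 over 18 pairs. The highest were those of KP4 DMSO with MiaPaca2 DMSO, at 0.0318 to 0.0465. Such small values cannot tell whether libraries with the same number share a culture or a batch. With the replicate block, 5 members were called in KP4 in place of 6, where 45.7% of all genes tested were called. The MiaPaca2 response had 5 (62.6% of all genes) and the difference between the responses 6 (34.5%). The comparison of the DMSO groups had 6 (62.6%) and that of the trametinib groups 5 (54.8%). FOS and FOSB rest on 16 to 192 counts per library, which limits their precision.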
